A study of Homo sapiens with 24 samples.

Results

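The 40 nucleolar ribosome biogenesis genes described here encode proteins that transcribe, modify and cleave ribosomal RNA (rRNA) or assemble it into subunits. They were taken by symbol from a list of nucleolar genes that MYC is known to drive, and all 40 were found among the 26475 gene symbols of the count files. RNA was sequenced from HepG2, an established human hepatocellular carcinoma line, in 24 libraries, 3 for each of 8 treatments. Cells of 4 groups received the solvent DMSO, 50 nM of ABBV-075, or ABBV-744 at 50 nM or 500 nM, and the other 4 received interferon gamma (IFNg) with nothing added or with 1 of these inhibitor treatments. ABBV-075 inhibits all BET proteins, which are bromodomain readers of acetylated histones, and ABBV-744 is selective for the second bromodomain of these proteins. ABBV-075 was given for 12 h, the methods read as if DMSO was given for 24 h, so that this control may differ in duration, and the sources give no time for ABBV-744 and IFNg and no IFNg dose.

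In the nucleolus, RNA polymerase I copies the rRNA precursor with the help of UBTF and RRN3, and the box C/D and box H/ACA particles then guide its methylation and pseudouridylation. The processome of the small subunit and the assembly factors of the large subunit, among them the complex of PES1, BOP1 and WDR12, cut and fold the precursor into ribosomal subunits. MYC is known to activate many of these genes, and in liver the pathway is known for its rise during regeneration and in hepatocellular carcinoma.

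The members fall into 6 roles. RNA polymerase I transcription has 6 genes (POLR1A, POLR1B, POLR1C, UBTF, RRN3, TCOF1). The box C/D role has 4 (FBL, NOP56, NOP58, NOLC1), of which NOLC1 is counted there but is not a core protein of these particles. The box H/ACA particles have 4 (DKC1, GAR1, NHP2, NOP10). The small-subunit processome and 40S maturation have 10 (HEATR1, UTP20, UTP14A, WDR43, RRP9, RRP12, NOP14, BYSL, NOB1, NAT10). Assembly of the 60S subunit has 13 (PES1, BOP1, WDR12, NOP2, NOP16, RRP1, EBNA1BP2, MRTO4, NIP7, GNL3, DDX18, URB2, PA2G4), and 3 are abundant nucleolar RNA-binding proteins (NCL, NPM1, DDX21).

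Each library held between 2978982 and 4304103 reads counted on genes, and the 40 members took between 0.302% and 0.430% of them. In the DMSO libraries this share was 0.418% ± 0.0112 (SD, n = 3). Levels are CPM, read counts scaled by library size and TMM factor over the 24 libraries. Per kilobase of exon, NOB1, the nuclease that finishes 18S rRNA, had the highest DMSO level of the 40. NOP56 (76.1 CPM per kilobase), FBL (75.1) and PA2G4 (67.1) came next, NPM1 was at 51.2, NCL was at 4.91, and RRP1 was lowest at 0.767. The length used joins all annotated exons of a gene (2101 bases for NOB1, 8311 for NPM1). It can exceed the length of the transcript expressed, so this order depends on the annotation. Without division by length, NPM1 had the highest mean with DMSO, at 425 CPM, and NOB1 had 210. The fewest reads were those of RRP1, with 8 to 29 counts per library, GAR1, with 6 to 40, and TCOF1, with 18 to 62, so that their changes are the least precise. Reads that align to several places were left out of the counts (56.0% to 69.4% of the reads of a library), and members with many processed copies in the genome, such as NPM1 and NOP10, and genes that overlap others may be counted short.

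The cell type was checked on marker genes. The liver genes ALB, AFP, APOA1, APOB, TTR, HNF4A, TF, SERPINA1 and FGB were expressed in all 24 libraries, with FGB the lowest of them at 107 to 308 counts. Of the leukocyte, fibroblast and endothelial markers, PTPRC, CD3E, COL1A2, DCN, LUM and KDR had 0 counts in every library, CD14 had 1 to 22 and LYZ 3622 to 7873. The list also held COL1A1, PECAM1, CDH5 and VWF, whose counts are not given here, so the check of fibroblasts and endothelial cells is partial. IFNg acted in the cells: against DMSO the log2 fold change was 4.26 for IRF1 (adjusted p = 4.53e-27) and 4.88 for GBP1 (1.58e-15). HEXIM1, a gene known to rise under BET inhibition, stood at 54.0, 56.7 and 50.5 CPM with DMSO, at 137, 146 and 152 with ABBV-075, at 67.9, 66.8 and 60.2 with ABBV-744 50 nM and at 93.7, 84.1 and 90.1 with ABBV-744 500 nM. HEXIM1 rose with ABBV-075 (log2 fold change 1.40, adjusted p = 6.81e-06) and with ABBV-744 500 nM (0.74, adjusted p = 1.89e-05), and at 50 nM of ABBV-744 its difference of 0.29 did not pass (adjusted p = 0.0816).

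Across all genes, 3 libraries correlated best with a library outside their own group: ABBV-744 50 nM replicate 2, ABBV-744 500 nM replicate 2 and IFNg+ABBV-744 500 nM replicate 1, each with a library of the other ABBV-744 dose. The lowest mean correlations with the own group were those of ABBV-075 replicates 3 and 1 (0.9652 and 0.9696), so these libraries stood furthest from their group. The effects also followed the GC content of the genes. In ABBV-744 50 nM against DMSO, the median log2 fold change of all genes ran from -0.32 in the lowest of 5 equal bins of GC content to 0.25 in the highest. It ran the other way in ABBV-075 against DMSO, from 0.44 to -0.13, and in IFNg+ABBV-744 50 nM against IFNg, from 0.78 to -0.32. The members span 37.92% to 65.57% GC. For most comparisons, counts or values of the members are therefore given also after a correction that removes this trend from each library.

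**Figure D1:**
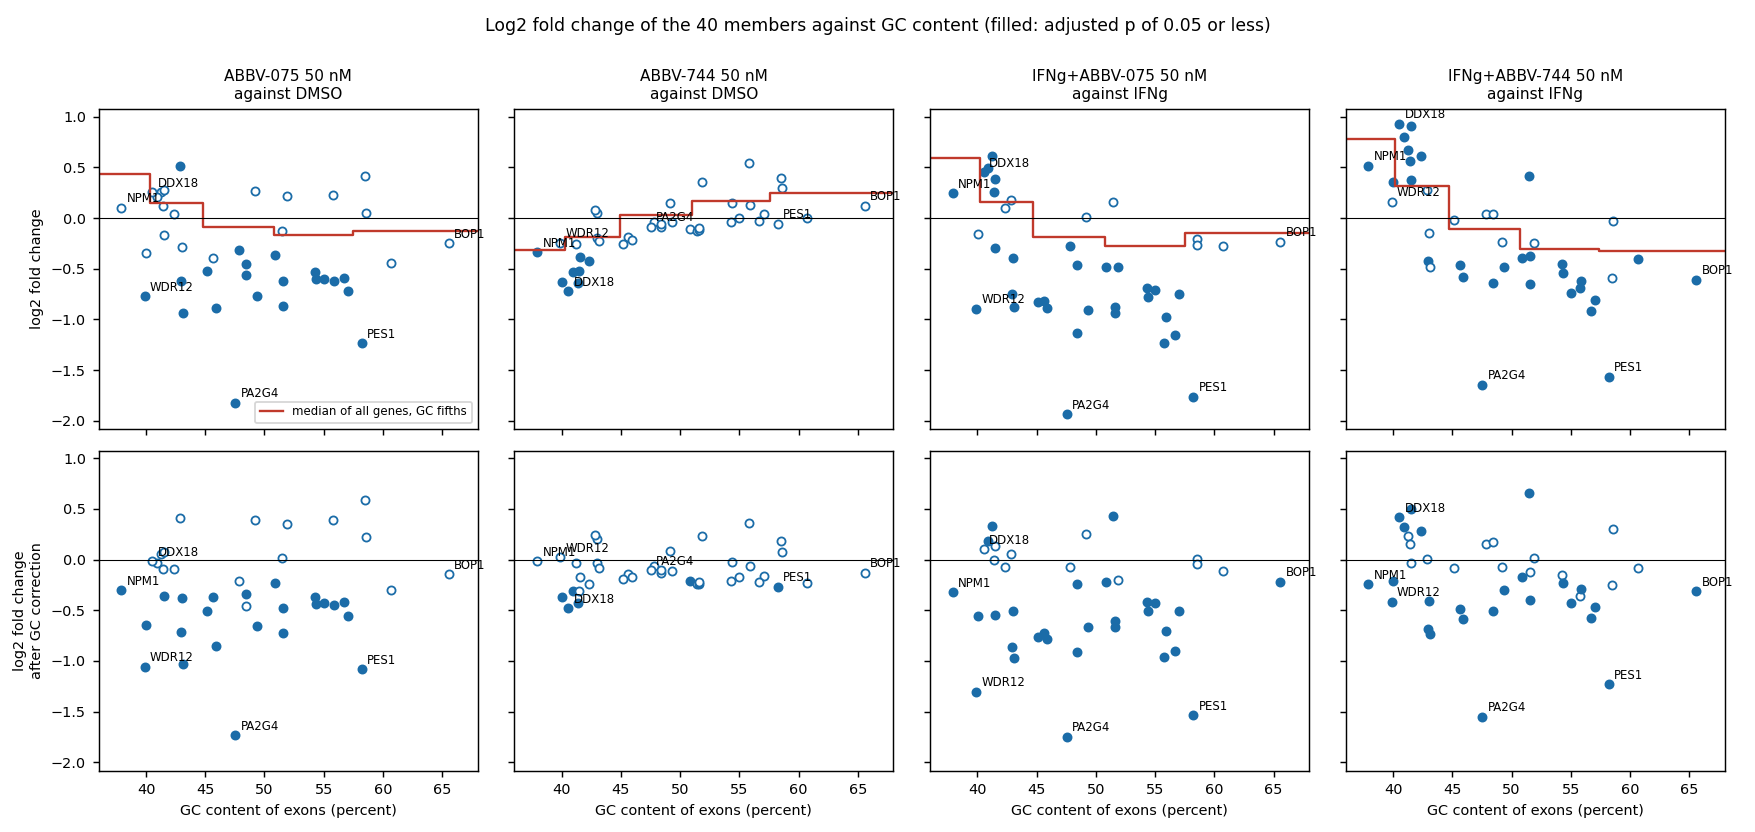
Log2 fold change of the 40 members (y axis) against the GC content of their exons in percent (x axis) in 4 comparisons, without (top) and with (bottom) the GC correction, filled where the adjusted p was 0.05 or less; the line is the median of all genes in 5 GC bins. Before the correction the median of the 20 members with lower GC is 0.22 with IFNg+ABBV-744 50 nM and -0.25 with ABBV-744 50 nM, with single members on either side of zero. PA2G4 and PES1 stay far below the other members with IFNg+ABBV-744 50 nM after it.

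A promoter sequence was available from RefSeq (GRCh38.p14) for 33 of the 40 members. The 250 bases before each start were searched for CACGTG, the E-box palindrome that MYC and MAX bind, which reads the same on both strands. It was present in 5 of the 33 member promoters (15.2%), in 16 of 89 promoters of other ribosome biogenesis genes (18.0%), in 3 of 65 ribosomal protein promoters (4.62%) and in 1242 of 15843 protein-coding promoters (7.84%). The 5 members are shown because MYC itself changes in these data, with the motif in capitals. A match describes the letters and is not evidence of binding.
EBNA1BP2, minus strand, chr1:43172772-43172820: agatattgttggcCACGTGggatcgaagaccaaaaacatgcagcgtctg
NAT10, plus strand, chr11:34105584-34105628: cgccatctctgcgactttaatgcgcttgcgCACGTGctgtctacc
NOP10, minus strand, chr15:34343137-34343177: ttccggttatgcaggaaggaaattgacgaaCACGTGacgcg
UTP14A, plus strand, chrX:129905914-129905958: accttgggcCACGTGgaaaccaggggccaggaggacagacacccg
UTP20, plus strand, chr12:101280065-101280104: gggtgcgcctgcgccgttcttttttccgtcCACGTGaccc
The motif begins 10 bases before the start in UTP20, 11 in NOP10 (which has another at 170), 15 in NAT10, 237 in EBNA1BP2 and 241 in UTP14A. These 5 genes did not move alike: NAT10, an rRNA acetyltransferase, was called lower in 4 of the 6 comparisons of an inhibitor with its own control, and EBNA1BP2, a 60S assembly factor, was called in none of them.

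ABBV-075 lowered a broad set of members. A gene is called lower or higher here at an adjusted p of 0.05 or less in edgeR's test, whatever its size of change. With ABBV-075 against DMSO, 20 of the 40 members were called lower, where 19.6% of the 11244 genes tested were, and 1 was called higher, where 19.8% of genes were. The median log2 fold change of the members was -0.38, against 0.03 for all genes. DESeq2 called 17 lower and 1 higher. After the GC correction edgeR called 23 lower (23.5% of all genes) and 0 higher (21.6%, and 29 members had an unadjusted p under 0.05 in that fit), and 18 were called lower both with and without it. The DMSO and ABBV-075 samples are described as independent triplicates, but no source says whether replicates of any group were separate cultures. The p-values therefore measure the spread between these samples only. In bulk RNA, fewer cells that express a gene cannot be told apart from less of its RNA per cell. Of the 21 members called, 15 were called whichever library was left out, and the number called was 15 without DMSO replicate 1 and 30 without ABBV-075 replicate 3.

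By role, the counts with ABBV-075 describe groups of 3 to 13 genes, and no difference between roles was tested. Box H/ACA genes had 3 of 4 called lower with a median of -0.62 (4 and -0.53 after the GC correction), 60S assembly genes 8 of 13 with a median of -0.62 (8 and -0.45), and box C/D genes 3 of 4 with a median of -0.34 (2 and -0.22). Of the box C/D genes, NOLC1 did not pass without DMSO replicate 1, 2 or 3 or ABBV-075 replicate 2 (adjusted p = 0.0883, 0.157, 0.162 and 0.0951). NOP56 was lost in the same fits. Processome and 40S genes had 4 of 10 called lower with a median of -0.39 (5 and -0.39), and RNA polymerase I genes 2 of 6, POLR1B and UBTF, with a median of -0.09 (3 and -0.16). Of the abundant RNA-binding proteins NCL was called higher and none lower (0 higher and 1 lower after the correction). Positive estimates were found for 13 of the 40 members, among them all 3 abundant proteins and the polymerase I genes RRN3, TCOF1 and POLR1A. The estimate of NPM1 turned from 0.10 to -0.30 after the GC correction (adjusted p = 0.00424).

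**Figure D2:**
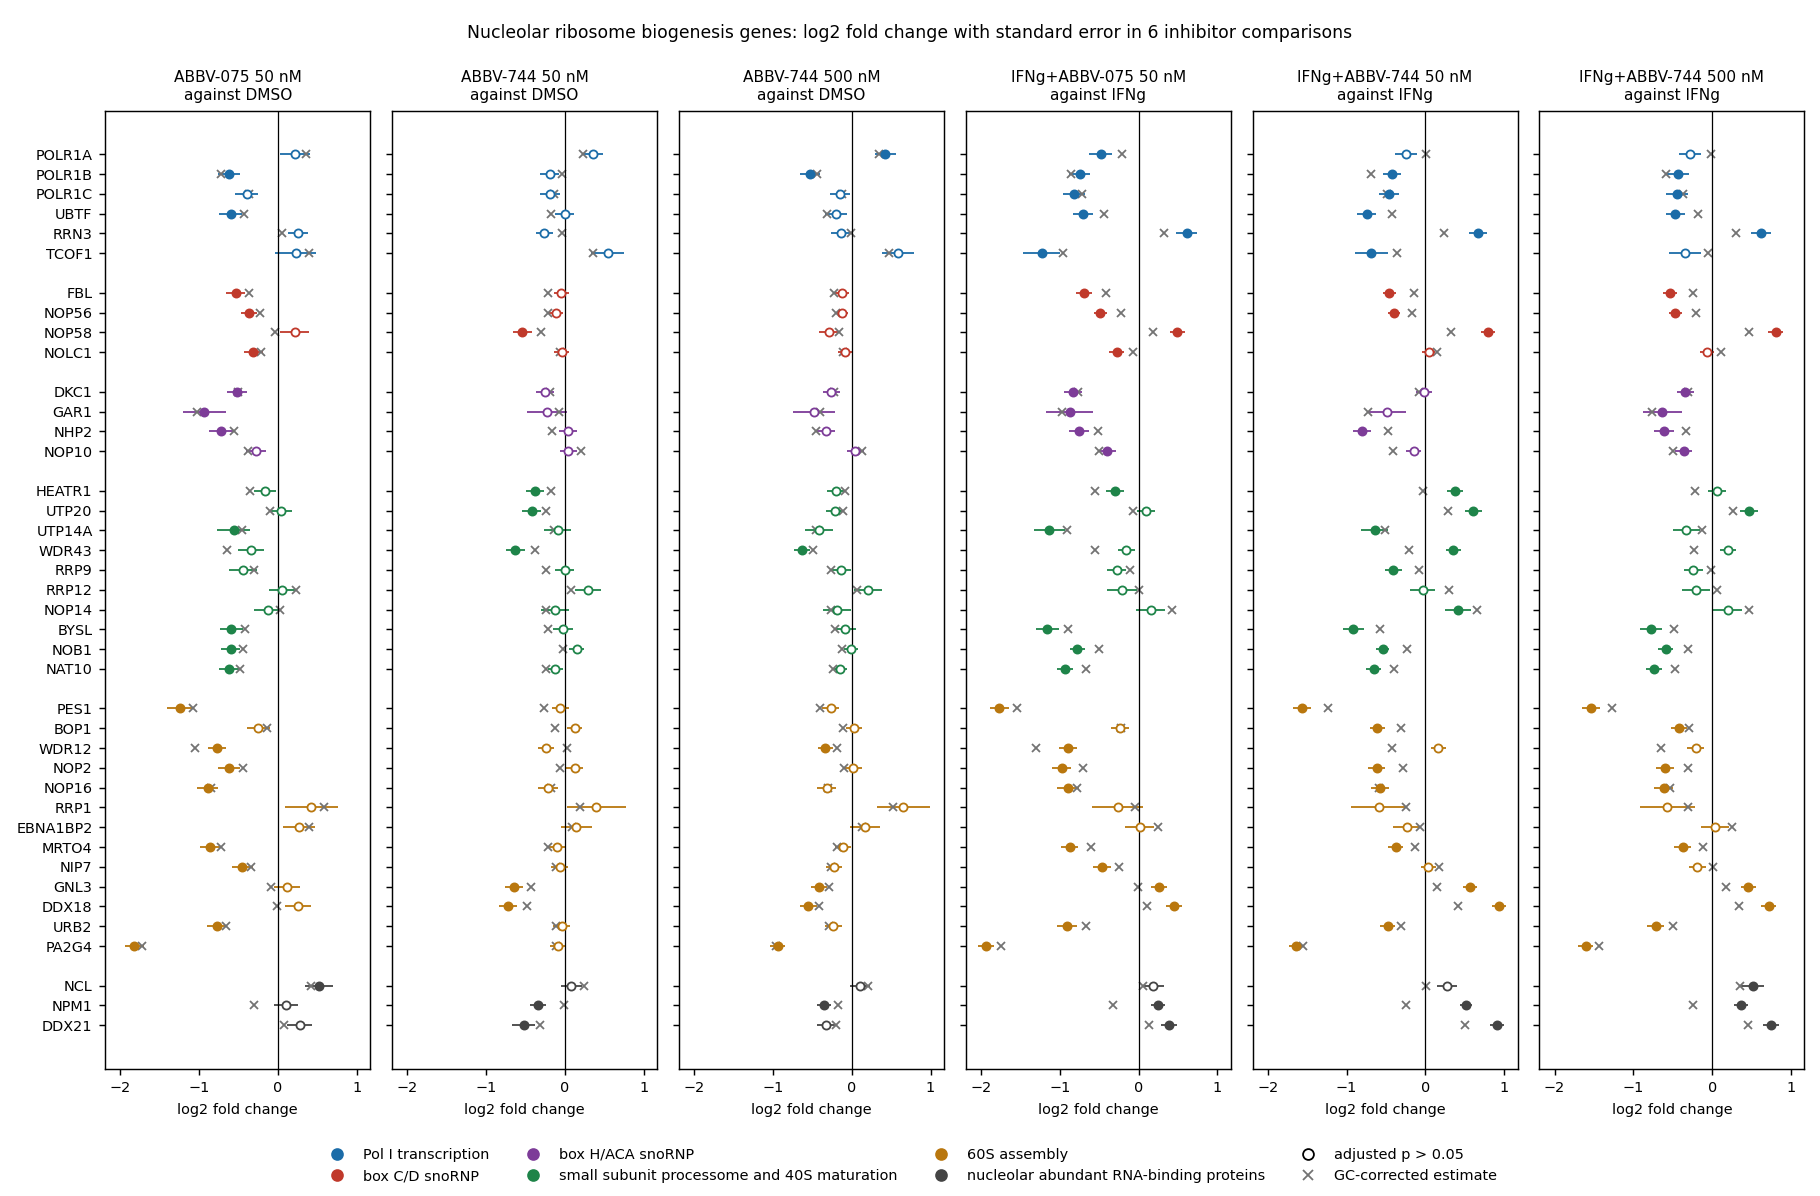
Log2 fold change (x axis) of each of the 40 members (y axis, coloured by role) in the 6 comparisons of an inhibitor with its own control; bars are standard errors, filled points have an adjusted p of 0.05 or less, and crosses are the GC-corrected estimates. PA2G4 is the lowest member in the ABBV-075 comparisons, and the crosses of low-GC genes such as NPM1 and WDR43 lie apart from their points.

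PA2G4, a growth-regulated protein that binds pre-ribosomes, lies at chr12:56104537-56113910 and changed the most. Its level was 264, 237 and 220.2 CPM in the DMSO libraries and 76.3, 64.5 and 65.7 in the ABBV-075 libraries. All 3 ABBV-075 libraries were far below all 3 DMSO libraries. For PA2G4 the log2 fold change was -1.82 ± 0.12 (standard error) with an adjusted p of 1.09e-06, or -1.73 after the GC correction, and PA2G4 was the 1 member past the size threshold of 1.5 that the study used.

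PES1, a scaffold of the 60S assembly complex at chr22:30576625-30607083, had the next lowest value. It stood at 94.7, 93.7 and 104 CPM with DMSO and at 33.0, 40.7 and 52.8 with ABBV-075. The groups did not overlap. For PES1 the log2 fold change was -1.24 ± 0.17 (standard error) with an adjusted p of 0.000183, or -1.08 after the GC correction. The partners of PES1 differed: WDR12 fell to 80.2, 79.9 and 80.7 CPM from 134, 144 and 127 (log2 fold change -0.77, adjusted p = 0.000333), whereas the estimate for BOP1 was -0.25 and did not pass (adjusted p = 0.197), and 1 ABBV-075 library, at 145 CPM, lay above every DMSO library.

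GAR1, a core protein of the box H/ACA particles, was low in reads, at 9.36, 8.20 and 8.09 CPM with DMSO and 6.02, 4.30 and 3.00 with ABBV-075. Its log2 fold change of -0.93 (adjusted p = 0.0180) no longer passed without DMSO replicate 1 (-0.87, adjusted p = 0.0646) or without ABBV-075 replicate 2 (-0.90, adjusted p = 0.0659). NOP10, its partner in the same particle, had 98.7, 93.3 and 85.5 CPM with DMSO against 74.7, 72.8 and 84.0. All ABBV-075 libraries were below all DMSO libraries for NOP10, but the difference of -0.28 did not pass (adjusted p = 0.0894; -0.38 and 0.0137 after the GC correction).

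The most highly expressed members of the box C/D and 40S roles also fell. NOP56, a core box C/D protein, went from 374, 373 and 384 CPM to 288, 296 and 306, a narrow shift of -0.37 (adjusted p = 0.0121) that did not pass without DMSO replicate 1, 2 or 3 (adjusted p = 0.0516, 0.0532 and 0.0663) or ABBV-075 replicate 2 (0.05 when rounded). NOB1 went from 217, 214 and 199.7 CPM to 121, 141 and 159.7. The libraries did not overlap in either gene, and the log2 fold change of NOB1 was -0.60 (adjusted p = 0.00259; -0.44 after the GC correction).

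The members with the highest estimates varied between the ABBV-075 libraries. NCL, nucleolin, stood at 47.1, 43.9 and 40.5 CPM with DMSO and at 47.2, 77.4 and 66.6 with ABBV-075. Its rise of 0.52 (adjusted p = 0.0341) did not pass after the GC correction (0.41, adjusted p = 0.0564), nor without DMSO replicate 1, 2 or 3 (adjusted p = 0.0696, 0.0976 and 0.129) or ABBV-075 replicate 2 (0.36, adjusted p = 0.183). DDX21, an RNA helicase that also acts at polymerase II genes, had 79.5, 101 and 97.6 CPM with DMSO and 136, 119 and 87.6 with ABBV-075. Here the groups overlapped and the difference of 0.28 did not pass (adjusted p = 0.183), but without ABBV-075 replicate 3 it was 0.43 (adjusted p = 0.00356). RRP1 was at 3.75, 1.99 and 4.05 CPM with DMSO and 3.61, 4.87 and 4.80 with ABBV-075, which left its estimate of 0.42 without a call (adjusted p = 0.342).

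The low-GC members NPM1 and DDX18 spread widely within the ABBV-075 group. NPM1, a histone and ribosome chaperone, was at 393, 459 and 424 CPM with DMSO and at 574, 466 and 349 with ABBV-075. DDX18, a helicase of 60S assembly at chr2:117814691-117832377, was at 154, 186 and 169.7 CPM with DMSO and at 266, 201 and 150.4 with ABBV-075. For both genes ABBV-075 replicate 1 lay above every DMSO library and replicate 3 below every one. The share of reads that aligned to several places also differed between these libraries (56.0%, 64.4% and 67.4% in replicates 1, 2 and 3), and its part in the spread was not tested. RRN3, the factor that brings RNA polymerase I to its promoter, was at 73.3, 83.1 and 87.1 CPM with DMSO and at 109, 91.1 and 95.7 with ABBV-075, a difference of 0.26 that did not pass (adjusted p = 0.122).

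**Figure D3:**
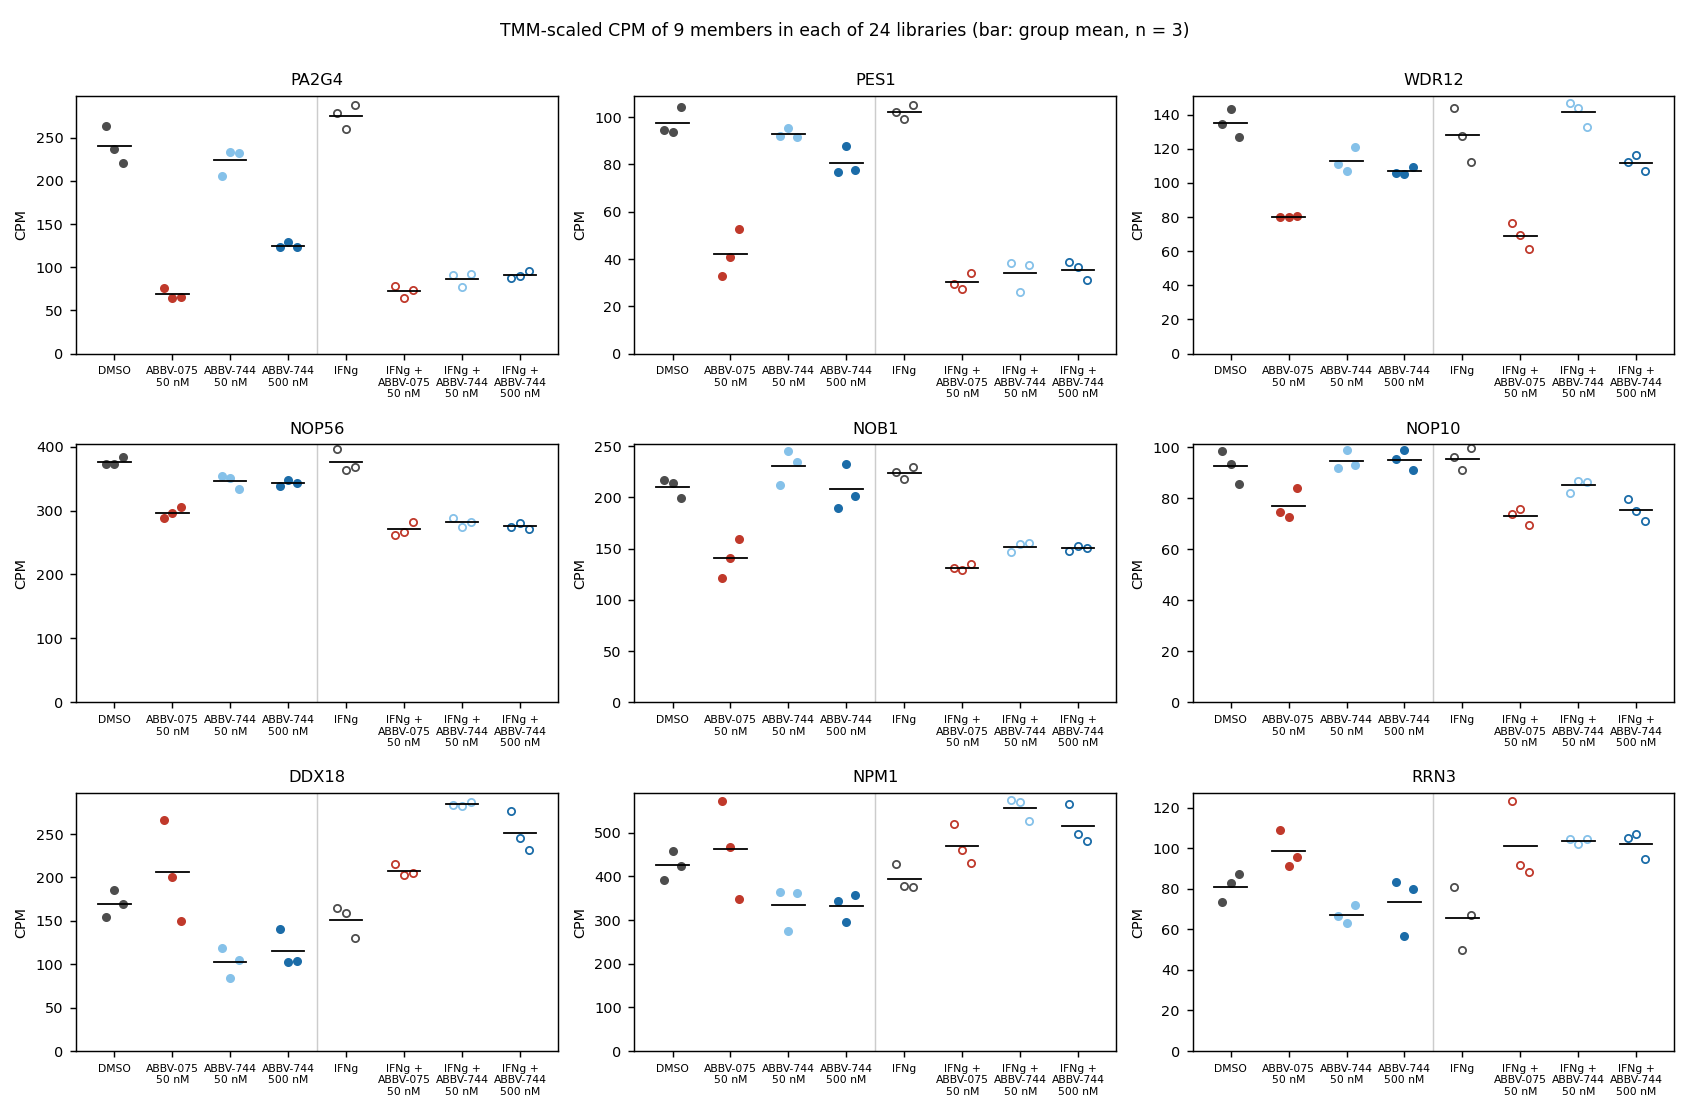
Level in CPM (y axis) of 9 members in each of the 24 libraries by treatment group (x axis), with bars at the group means (n = 3). PA2G4 and PES1 are low in the ABBV-075 group and in the 3 groups given IFNg with an inhibitor, and NPM1 and DDX18 spread widely in the ABBV-075 group.

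ABBV-744 at 50 nM called fewer members. Against DMSO, 8 of 40 were lower (10.1% of the 11116 genes tested) and none higher (8.81%), with a median of -0.09 (edgeR; 13 members had an unadjusted p under 0.05, and DESeq2 called 8 lower and 0 higher). After the GC correction 7 were lower (5.15% of all genes, with 5.60% higher), and 4 of the 8 were called both ways. The 8 were NOP58, HEATR1, UTP20, WDR43, GNL3, DDX18, NPM1 and DDX21, and all 8 belong to the 20 members with the lower GC content, while none of the 20 with higher GC was called. The count was 5 without DMSO replicate 2 and 4 without DMSO replicate 3, and 4 members were called whichever library was left out.

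DDX18 had the lowest estimate with ABBV-744 at 50 nM, with 118, 84.0 and 105 CPM, all below the DMSO libraries. Its log2 fold change was -0.72 (adjusted p = 0.000102) and stayed called after the GC correction (-0.48, adjusted p = 0.000217). NPM1, at 364, 275 and 362 CPM, was called lower (-0.34, adjusted p = 0.0211), but not without DMSO replicate 2 (adjusted p = 0.160) or 3 (0.0831), and its estimate was -0.02 after the GC correction (adjusted p = 0.910). PA2G4 and PES1, the lowest members with ABBV-075, were not called: PA2G4 had 205.7, 234 and 233 CPM (-0.09, adjusted p = 0.555) and PES1 92.3, 95.3 and 91.6 (-0.06, adjusted p = 0.740). After the GC correction PES1 did pass (-0.27, adjusted p = 0.0433), as it did at 500 nM (-0.40, adjusted p = 0.000818).

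At 500 nM, ABBV-744 lowered PA2G4 clearly. Against DMSO, 7 of the 40 members were called lower (7.80% of 11124 genes) and 1 higher (7.48%), with a median of -0.19. DESeq2 called 7 lower and 0 higher. With the GC correction 14 were lower (9.52% of all genes) and 1 higher (8.40%), of which 5 lower and 1 higher were called both ways. The 7 lower members were POLR1B, WDR43, WDR12, GNL3, DDX18, NPM1 and PA2G4, and the count of members called was 5 without DMSO replicate 2 and 12 without ABBV-744 500 nM replicate 2. PA2G4 had 123, 129 and 123 CPM, between DMSO and ABBV-075 without overlap with either group. Its log2 fold change against DMSO was -0.94 (standard error 0.09, adjusted p = 2.31e-08), or -0.95 after the GC correction.

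WDR43, a processome protein, and DDX18 were the next lowest at 500 nM. WDR43 fell from 134, 143 and 140.4 CPM to 86.2, 84.7 and 97.3 (-0.63, adjusted p = 3.88e-05; -0.49 after the GC correction), and DDX18 stood at 140.5, 102 and 104 (-0.55, adjusted p = 0.000722; -0.42). Both lay below DMSO in all 3 libraries. POLR1A, the largest polymerase I subunit, had 43.1, 33.7 and 37.9 CPM with DMSO and 46.1, 47.6 and 59.1 with ABBV-744 500 nM. Its rise of 0.43 (adjusted p = 0.0277) did not pass without DMSO replicate 2 (adjusted p = 0.179), DMSO replicate 3 (0.0985) or ABBV-744 500 nM replicate 3 (0.212), nor with scaling by library size alone (0.0893). TCOF1, which links polymerase I to rDNA, was at 10.4, 13.7 and 8.33 CPM with DMSO and 15.4, 16.3 and 17.2 at 500 nM (0.59, adjusted p = 0.0514), and passed without DMSO replicate 2 (0.81, adjusted p = 0.0346). RRP1 reached 4.64, 5.12 and 5.45 CPM, above its DMSO libraries but without a call (0.65, adjusted p = 0.195).

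Between the ABBV-744 doses, PA2G4 was the 1 member that differed. At 500 nM against 50 nM, 1 of 40 was called lower (0.0274% of 10967 genes) and none higher (0% of genes). In edgeR 3 members had an unadjusted p under 0.05, and DESeq2 also called 1 lower and 0 higher. The difference in PA2G4 was -0.85 (standard error 0.11, adjusted p = 0.00130; -0.85 after the GC correction), and the adjusted p was 0.0788 without ABBV-744 50 nM replicate 3.

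The 2 inhibitors differed at the same dose of 50 nM. With ABBV-075 against ABBV-744, 14 of 40 members were lower (19.4% of the 10992 genes tested) and 6 higher (21.4%), with a median of -0.30. After the GC correction 14 were lower (17.9% of all genes) and 3 higher (16.4%), and 13 were called in the same direction both ways. PA2G4 was lowest (-1.71, adjusted p = 6.66e-05) and DDX18 highest (1.00, adjusted p = 0.00423; 0.48 after the GC correction). The count of 20 became 12 without ABBV-075 replicate 2 and 12 without ABBV-744 50 nM replicate 2. The comparisons with DMSO share the DMSO libraries, and this one shares the inhibitor libraries with them.

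IFNg by itself changed no member detectably at this depth. In IFNg against DMSO 0 of 40 members were lower (0.695% of 11217 genes) and 0 higher (2.76%), with a median of 0.05. An unadjusted p under 0.05 was found for 4 members in edgeR, and DESeq2 called 0. The 95% intervals of the 40 estimates ran from -0.54 at the lowest bound to 1.51 at the highest. The lowest estimate was that of RRN3, with 80.9, 49.8 and 67.0 CPM (-0.30, adjusted p = 0.204), which passed without IFNg replicate 1 (-0.48, adjusted p = 0.00793). DDX18, with 164, 159 and 130.4 CPM (-0.17, adjusted p = 0.390), and NOP14, a processome protein with 15.2, 16.8 and 17.9 CPM against 17.9, 18.6 and 19.3 with DMSO (-0.17, adjusted p = 0.723), came next.

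The highest estimates with IFNg were those of low-count members. RRP1 was at 3.00, 8.54 and 5.58 CPM (0.80, adjusted p = 0.291) and TCOF1 at 13.1, 15.03 and 16.5 (0.44, adjusted p = 0.315). EBNA1BP2 was at 18.5, 16.2 and 22.1 CPM, against 20.3, 13.3 and 13.3 with DMSO (0.29, adjusted p = 0.517). In RRP1, TCOF1 and EBNA1BP2 the libraries of the groups overlapped. PA2G4, at 278, 260.2 and 288 CPM, had an estimate of 0.20 (adjusted p = 0.211).

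Added to IFNg, ABBV-075 lowered 25 of the 40 members (28.4% of the 11187 genes tested were lower) and raised 6 (28.2%), with a median of -0.48. With the GC correction 26 were lower (29.2% of all genes) and 3 higher (26.8%), and 25 were called in the same direction both ways. All 20 members called lower with ABBV-075 against DMSO were called lower here too, against a separate control, and GC-corrected this held for 23 of 23. The same overlap over all genes is not given here, so it is not read as particular to the members. An interaction test over 12 libraries asked whether ABBV-075 acted differently once IFNg was present: 0 of 40 members were lower (0.0173% of 11530 genes) and 0 higher (0.0173%), with 7 at an unadjusted p under 0.05 in edgeR and 0 called by DESeq2. Without ABBV-075 replicate 1 this interaction called 3 members.

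PA2G4 again was lowest, at 77.9, 64.9 and 73.7 CPM with IFNg+ABBV-075 (log2 fold change against IFNg -1.94, standard error 0.10, adjusted p = 1.34e-18). PES1 fell from 102, 99.3 and 105 CPM with IFNg to 29.5, 27.1 and 34.3 (-1.76, adjusted p = 6.85e-15). These were the 2 members past the size threshold of 1.5. All 4 box H/ACA genes and 5 of 6 polymerase I genes were called lower (4 and 4 after the GC correction), but not GAR1 without IFNg+ABBV-075 replicate 3 (-0.50, adjusted p = 0.129) nor POLR1A without IFNg replicate 3 (adjusted p = 0.0812). The exception among the polymerase I genes was RRN3, which rose to 124, 91.7 and 88.1 CPM (0.61, adjusted p = 0.000189; 0.33 and 0.00558 after the GC correction). The other members called higher were NOP58, GNL3, DDX18, NPM1 and DDX21, of which NOP58 stayed called higher after the correction and NPM1 reversed (0.25 to -0.32). NPM1 did not pass without IFNg replicate 2 (adjusted p = 0.112), IFNg replicate 3 (0.105) or IFNg+ABBV-075 replicate 1 (0.0668), nor GNL3 without IFNg replicate 2 (0.0768) or 3 (0.267) or IFNg+ABBV-075 replicate 1 (0.111) or 2 (0.0652).

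More members were called with ABBV-744 when it was added to IFNg. The GC-corrected median of the 40 members was -0.22 at both doses, beside -0.14 (50 nM) and -0.20 (500 nM) without IFNg. With IFNg+ABBV-744 50 nM against IFNg, 19 of 40 members were lower (24.3% of the 11150 genes tested) and 10 higher (27.4%), with a median of -0.39. After the GC correction 20 were lower (18.2% of all genes) and 5 higher (16.3%), and 20 were called in the same direction both ways. With IFNg+ABBV-744 500 nM, 19 were lower (22.8% of 11091 genes) and 8 higher (22.9%), with a median of -0.34. After the correction 20 were lower (19.5% of all genes) and 7 higher (17.4%), and 23 were called in the same direction both ways. The 2 comparisons share the IFNg libraries. At both doses 60S assembly had 7 of 13 members lower and 2 higher (7 and 1 after the GC correction).

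PA2G4 and PES1 were the lowest at both doses. PA2G4 was at 90.5, 77.0 and 92.7 CPM at 50 nM and at 88.1, 90.3 and 96.1 at 500 nM, near its level with IFNg+ABBV-075, and its log2 fold change against IFNg was -1.65 (adjusted p = 1.12e-15) and -1.60 (adjusted p = 4.30e-14). PES1 was at 38.3, 25.9 and 37.5 CPM at 50 nM and at 38.5, 36.7 and 31.3 at 500 nM (-1.56, adjusted p = 1.27e-12, and -1.54, adjusted p = 4.41e-12). Every one of these libraries was below every IFNg library, and after the GC correction the values were -1.55 and -1.44 for PA2G4 and -1.23 and -1.27 for PES1.

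The highest members at these doses before the GC correction were genes of low GC content, and after it NOP14, with 51.46% GC, was highest at both (0.66, adjusted p = 0.00118, and 0.46, adjusted p = 0.0342). DDX18 rose from 164, 159 and 130.4 CPM with IFNg to 283, 283 and 287 at 50 nM of ABBV-744 (0.93, adjusted p = 1.44e-10; 0.42 and 1.72e-05 after the GC correction). NOP58, a core box C/D protein, rose from 97.5, 93.1 and 91.0 CPM to 183, 158 and 157 at 500 nM (0.80, adjusted p = 6.50e-08; 0.46 and 1.54e-05). NPM1 was called higher at both doses (0.52 and 0.37) and called lower after the GC correction (-0.25, adjusted p = 0.00272, and -0.24, adjusted p = 0.00283). WDR43 likewise went from 0.35 to -0.21 at 50 nM (adjusted p = 0.0308), so the direction of these genes depends on the correction.

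The effect of ABBV-744 differed with and without IFNg for a large part of all genes, and the members are counted beside them. In the interaction at 50 nM, 17 of 40 members were lower (26.5% of 11451 genes) and 10 higher (25.0%), counting against a median of all genes of -0.14; with scaling by library size alone 10 were lower and 12 higher, and with the GC correction 5 lower and 6 higher. At 500 nM, 13 were lower (15% of 11428 genes) and 8 higher (18.5%), which became 8 and 8 by library size alone and 4 and 6 with the GC correction. The lower share of the members was 42.5% at 50 nM and 32.5% at 500 nM, and after the GC correction it was 12.5% (11.0% of all genes) and 10.0% (9.21%). The higher share was 25% and 20%, and after the correction 15% at both doses (9.37% and 7.57% of all genes). In the 50 nM interaction the medians of all genes in the 5 GC bins ran from 1.08 to -0.60, and of the 20 members with the higher GC content 15 were lower and none higher before the correction (1 lower and 1 higher after it). The share of reads aligning to several places also differed, from 66.2% to 69.4% in the ABBV-744 50 nM libraries and from 57.6% to 59.6% in the IFNg+ABBV-744 50 nM libraries, as did the share of counted reads on the 10 most abundant genes (27.9% to 32.4% and 22.7% to 24.3%).

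Some members kept their interaction after the correction. PA2G4 had the lowest value at 50 nM (-1.59, standard error 0.13, adjusted p = 3.53e-10; -1.44 and 2.33e-11 after the GC correction), and at 500 nM, where ABBV-744 had lowered it without IFNg, its value was -0.65 (adjusted p = 0.000204). PES1 had the lowest value at 500 nM (-1.25, adjusted p = 2.27e-07; -0.87 after the GC correction). DDX18 had the highest value at both doses, 1.62 at 50 nM (adjusted p = 2.01e-09; 0.90 after the GC correction) and 1.29 at 500 nM (adjusted p = 2.30e-07; 0.76). DDX18 was thus called lower by ABBV-744 without IFNg and higher with it. All 8 members called lower with ABBV-744 50 nM against DMSO were called higher when it was added to IFNg, whereas of the 7 called lower after the GC correction 4 were lower and 2 higher. The share of all genes that changed direction in this way is not given here.

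With IFNg present, ABBV-075 against ABBV-744 at 50 nM called 14 of 40 members lower (17.0% of the 11126 genes tested) and 1 higher (16.7%), with a median of -0.22, and GC-corrected 15 lower (18.3% of all genes) and none higher (16.4% of all genes in edgeR, while DESeq2 without the correction called 9 lower and 1 higher, and 10 members had an adjusted p of 0.05 or less whichever library was left out). Scaling by library size alone shifted the median of all genes by -0.12 and called 24 lower. WDR12 was the lowest: it was at 144, 128 and 112 CPM with IFNg, at 76.4, 69.5 and 61.1 with IFNg+ABBV-075 and at 147, 144 and 133 with IFNg+ABBV-744 50 nM. WDR12 thus differed between the inhibitors (-0.98, adjusted p = 7.00e-11; -0.87 after the GC correction), while its partner PES1 did not pass (-0.12, adjusted p = 0.549). BOP1, the other partner, was called higher, at 99.0, 138 and 150.7 CPM against 95.1, 91.9 and 105 (0.45, adjusted p = 0.00130), with overlapping groups and 0.11 after the GC correction (adjusted p = 0.298). Between the ABBV-744 doses with IFNg, 0 of 40 members were lower (0.290% of 11022 genes) and 0 higher (1.41%), with 8 at an unadjusted p under 0.05 in edgeR and 0 called by DESeq2.

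**Figure D4:**
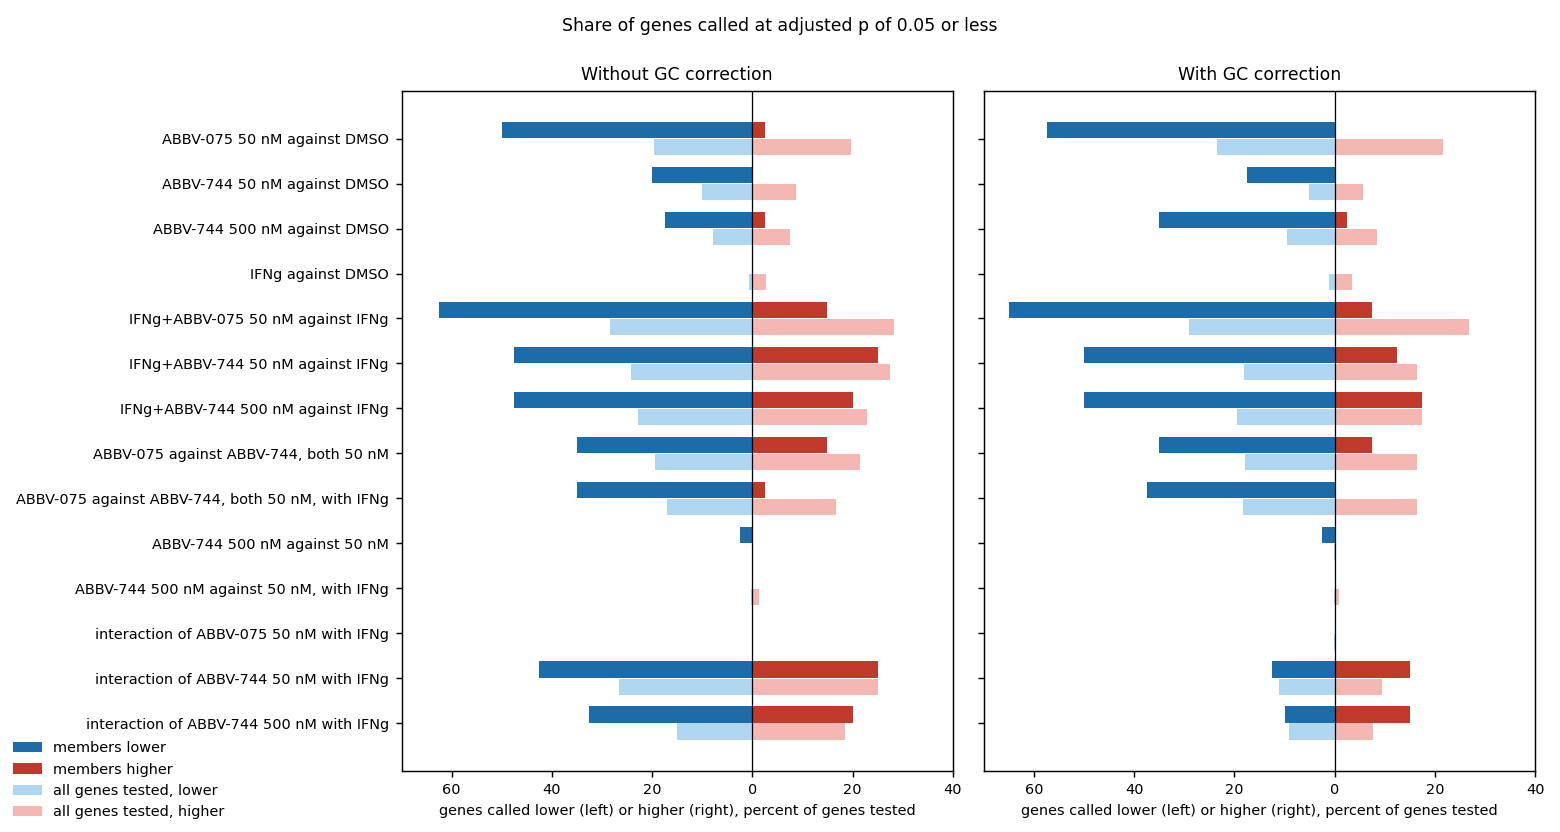
Percent of the 40 members (dark bars) and of all genes tested (light bars) called lower (to the left) or higher (to the right) in each of the 14 comparisons (y axis), without (left) and with (right) the GC correction. In the 6 comparisons of an inhibitor with its control the members' share of lower calls is above that of all genes in both panels, and it is near it in the interactions after the correction.

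Across the 6 comparisons of an inhibitor with its own control, 25 members were called lower at least once and never higher, 3 were called higher and never lower (RRN3, NOP14 and NCL), and 3 were never called (RRP12, RRP1 and EBNA1BP2). The 1 call of NOP14, with IFNg+ABBV-744 50 nM, did not pass without IFNg replicate 1 or 2 (adjusted p = 0.0856 and 0.0600) or without IFNg+ABBV-744 50 nM replicate 1, 2 or 3 (0.0702, 0.112 and 0.0724). The other 9 were called lower in some comparison and higher in another, and after the GC correction this number was 2 (NOP58 and DDX18). No member was called lower in all 6 without the correction, and NOP56, WDR43, NAT10 and PES1 were called lower in all 6 with it. POLR1B and PA2G4 were called lower in 5 of the 6 both ways. The POLR1B call with IFNg+ABBV-744 500 nM did not pass without replicate 2 or 3 of that group (adjusted p = 0.159 and 0.0516). Such patterns over all genes are not given here, so these counts describe the members and do not set them apart from other genes.

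A value over the members in each library was lowest in the ABBV-075 groups. The median log2 ratio of the 40 members to their DMSO means was -0.37 ± 0.02 (SD, n = 3) with ABBV-075, -0.12 ± 0.03 with ABBV-744 50 nM and -0.17 ± 0.03 with ABBV-744 500 nM. It was 0.05 ± 0.02 with IFNg, -0.45 ± 0.01 with IFNg+ABBV-075, -0.18 ± 0.04 with IFNg+ABBV-744 50 nM and -0.18 ± 0.01 with IFNg+ABBV-744 500 nM. The ABBV-744 groups lay near each other in this median with and without IFNg, but members that move both ways can leave it unchanged. For ABBV-744 50 nM against its own control, the median log2 fold change of the 20 members with lower GC was -0.25 without IFNg and 0.22 with it. For the 20 with higher GC it was -0.003 and -0.56, all before the GC correction.

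MYC, the transcription factor that drives this pathway, stood at 101, 102 and 121 CPM with DMSO, at 63.8, 70.2 and 64.2 with ABBV-075, at 86.6, 102 and 92.9 with ABBV-744 50 nM and at 89.4, 83.8 and 86.7 with ABBV-744 500 nM. It fell with ABBV-075 (-0.73, adjusted p = 0.000894), and its decrease at 500 nM of ABBV-744 (-0.31, adjusted p = 0.0397) did not pass without DMSO replicate 2, DMSO replicate 3 or ABBV-744 500 nM replicate 3 (adjusted p = 0.0871, 0.283 and 0.118). At 50 nM of ABBV-744 the estimate was -0.19 (adjusted p = 0.224). With IFNg MYC was at 108, 119 and 118 CPM, and it was lower with each inhibitor added: 60.8, 66.5 and 70.4 with ABBV-075 (-0.81, adjusted p = 5.76e-08), 71.0, 75.6 and 72.2 with ABBV-744 50 nM (-0.64, adjusted p = 1.24e-06) and 76.8, 76.7 and 75.8 with ABBV-744 500 nM (-0.60, adjusted p = 1.45e-05). The interaction of MYC at 50 nM of ABBV-744 was -0.47 (adjusted p = 0.00612) and did not pass after the GC correction (-0.24, adjusted p = 0.187). HEXIM1 was at 47.7, 49.2 and 44.7 CPM with IFNg. It rose with IFNg+ABBV-075 (136, 128 and 139.9 CPM, adjusted p = 2.47e-14) and with IFNg+ABBV-744 500 nM (0.58, adjusted p = 0.000121), and at 55.4, 38.6 and 54.3 CPM with IFNg+ABBV-744 50 nM its difference did not pass (0.09, adjusted p = 0.565).

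**Figure D5:**
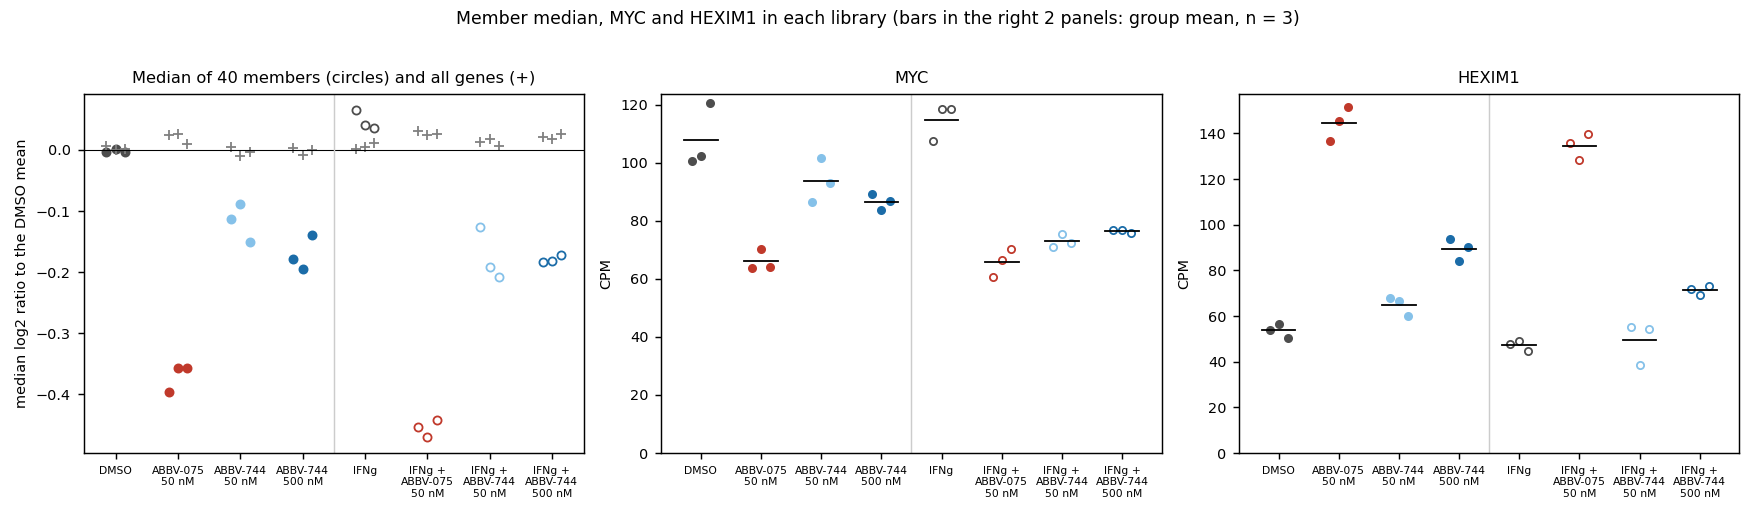
Median log2 ratio of the 40 members (circles) and of all genes (crosses) to the DMSO mean, and levels of MYC and HEXIM1 in CPM, in each library by treatment group (x axis); bars are group means (n = 3). The members' medians and MYC are lowest in the ABBV-075 groups, and HEXIM1 is highest there.

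Other genes of the pathway were counted for comparison with ABBV-075 against DMSO. Of 102 other ribosome biogenesis genes tested, 28 were called lower (27.5%, beside 19.6% of all genes) and 6 higher (5.88%, beside 19.8%), with a median of -0.11. The lowest were WDR46 (-1.31, adjusted p = 0.000167), RUVBL1 (-1.22, adjusted p = 0.00231) and RRS1 (-1.17, adjusted p = 0.000144), which act in the processome, in box C/D assembly and in 60S assembly, and the highest was the polymerase I subunit gene TWISTNB (0.76, adjusted p = 0.0428; 0.31 and 0.185 after the GC correction). Of 80 ribosomal protein genes, 11 were lower (13.8%, beside 19.6% of all genes) and 1 higher with a median of -0.11, and 14 lower and 7 higher after the GC correction. Their estimates ran from RPS27L (-0.50), RPL34 (-0.48) and RPS16 (-0.45) to RPL28 (0.43).

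Genes linked to MYC outside the nucleolus were 8 lower (42.1%, beside 19.6% of all genes) and 1 higher (5.26%, beside 19.8%) of 19, with a median of -0.31. NME1, a nucleoside diphosphate kinase, was lowest (-1.04, adjusted p = 0.00147), followed by CDK4 and SHMT2 (-0.66 each), and PPAT was highest (0.82, adjusted p = 0.0117; 0.28 and 0.0428 after the GC correction). In the MYC network itself 1 of 11 genes was lower, MYC, and 5 were higher, with MLXIP highest (0.80, adjusted p = 0.00204), while the next lowest after MYC, MXI1 (-0.24, adjusted p = 0.408) and MLX (-0.21, adjusted p = 0.313), did not pass. After the GC correction 12 of the 19 genes linked to MYC outside the nucleolus were lower with ABBV-075. This share of 63.2% stands beside 57.5% of the members and 23.5% of all genes.

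With ABBV-744 50 nM and 500 nM against DMSO, 22 and 13 of the 102 other ribosome biogenesis genes were lower and 2 and 0 higher (31 at 500 nM had an unadjusted p under 0.05 in edgeR). Their lower shares of 21.6% and 12.7% stand beside 10.1% and 7.80% of all genes. The GC-corrected counts were 14 and 17 lower and 0 higher at either dose (24 and 28 had an unadjusted p under 0.05). These lower shares of 13.7% and 16.7% stand beside 5.15% and 9.52% of all genes. Of the 80 ribosomal protein genes, 10 and 7 were called higher, shares of 12.5% and 8.75% beside 8.81% and 7.48% of all genes. For these genes the lower calls and the GC-corrected counts at the 2 doses are not given here, so no direction is read from them. Added to IFNg, ABBV-744 50 nM had 39 of the 80 ribosomal protein genes lower and 4 higher (31 and 8 after the GC correction), ABBV-744 500 nM 46 and 3 (31 and 10), and ABBV-075 41 and 5 (33 and 14). Their lower shares of 48.8%, 57.5% and 51.2% stand beside 24.3%, 22.8% and 28.4% of all genes. Of the other ribosome biogenesis genes, 39 of 102 were lower and 21 higher with IFNg+ABBV-075, 35 and 32 with IFNg+ABBV-744 50 nM, and 32 and 29 of 101 with IFNg+ABBV-744 500 nM. Of all genes 28.4%, 24.3% and 22.8% were lower in these 3 comparisons, and 28.2%, 27.4% and 22.9% were higher. For the other ribosome biogenesis genes the counts after the GC correction were 44 and 12, 23 and 14, and 16 and 14. Of all genes 29.2%, 18.2% and 19.5% were then lower, and 26.8%, 16.3% and 17.4% were higher.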

How the data were processed

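The deposited files hold, per the labels and their values, raw read counts per gene symbol without normalization; the authors depleted rRNA, trimmed with Trimmomatic 0.33 and aligned to hg38 with STAR 2.7.1 after CASAVA 1.8.2. The count column for reads sense to the gene was taken. The members and gene lists were chosen with earlier results of these data known. Tests used edgeR 4.0.16 in R 4.3.3 (filterByExpr, TMM, quasi-likelihood F test) on the groups compared, 6 libraries or 12 for an interaction, with Benjamini-Hochberg adjustment over all genes tested; all 40 members passed the filter in all 14 comparisons. The standard error is the log2 fold change divided by the square root of F, and 95% intervals are 1.96 standard errors wide on each side. Counts carry no molecular identifiers. The GC correction subtracts a lowess curve (span 0.3) of log2 CPM deviations (prior count 2) on exon GC content, from GENCODE, in each library. Library-level values are given for the most abundant member of each role, the 3 lowest and 3 highest members with ABBV-075, ABBV-744 500 nM and IFNg against DMSO, and the lowest and highest called member of each other comparison; BOP1 with ABBV-075, WDR12, NOP58 and others named beyond this rule were chosen after their values were seen. Outside the members, MYC, HEXIM1, the IFNg markers and the 3 lowest genes and the highest gene of each list with ABBV-075 are named. Alternatives were DESeq2 1.42.0 (the authors' tool), unstranded counts, RLE normalization, scaling by library size, 1 fit of all 24 libraries, testing genes whatever their counts, testing genes with 10 or more counts per library, the replicate number as a block, the GC correction with and without that block, and each library left out in turn. The fits were also run on simulated data as a check of the code only, and no result rests on that run. Tables were made in Python 3.11.15 with pandas 2.3.3 and numpy 2.4.6, and plots with matplotlib 3.10.9.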

Additional observations from a re-analysis of the deposited data

Results flagged for a closer look

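The effect of ABBV-744 differed between cells with and without IFNg, by a test of that difference, for many members and many of all genes. At 50 nM it called 27 members, with PA2G4 at -1.59 and DDX18 at 1.62 on the log2 scale, in a test that called 26.5% of all genes lower and 25.0% higher. At 500 nM it called 21 members, with PES1 at -1.25 and DDX18 at 1.29, where 15% of all genes were called lower and 18.5% higher. The GC content of the genes moves with these differences, and at 50 nM so does the share of reads aligning to several places. With scaling by library size 10 members were lower and 12 higher at 50 nM, and 8 and 8 at 500 nM. With the GC correction 11 and 10 members were called (11.0% of all genes lower and 9.37% higher at 50 nM, 9.21% and 7.57% at 500 nM), and PA2G4, PES1 and DDX18 stayed called.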

How the results depend on the processing

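Of 140 counts of members called, 127 stayed within 1.5 times under 10 alternatives. Gene values were recomputed mostly for members that passed without an alternative: of 4256, 24 reversed and 372 no longer passed, so members that newly pass are mostly not among them (with the GC correction 5 did for ABBV-075 and 9 for ABBV-744 500 nM against DMSO). The cause was not tested. With the GC correction, 15 members were called for ABBV-744 500 nM against DMSO, 11 in the interaction at ABBV-744 50 nM and 10 at 500 nM. With the GC correction and the replicate number as a block these were 3 for ABBV-744 50 nM against DMSO, 2 between the ABBV-744 doses, and 11 and 9 in the interactions. The block alone gave 2 between the doses and 1 with IFNg. With the group means removed, libraries of the same replicate number correlated at 0.25, 0.33 and 0.06 between the ABBV-744 doses (replicates 1, 2 and 3). With IFNg these values were 0.03, 0.01 and 0.08, and in ABBV-075 against DMSO -0.17, 0.07 and -0.06. Whether the replicate numbers mark pairs was not tested. With library size only, 25 were called for ABBV-075 against ABBV-744 with IFNg and 1 between the doses with IFNg, with all 24 libraries in the fit 5 for ABBV-744 500 nM against DMSO, and without the filter on low counts 1 in the ABBV-075 interaction.

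Reversed values are given with the GC correction and then with the GC correction and block. They were, for IFNg+ABBV-075, GNL3 (-0.00702, -0.00762) and NPM1 (-0.32, -0.32); for IFNg+ABBV-744 50 nM, HEATR1 (-0.0326, -0.0380), WDR43 (-0.21, -0.21) and NPM1 (-0.25, -0.25); and for IFNg+ABBV-744 500 nM, NPM1 (-0.24, -0.24). In the interaction at 50 nM they were FBL (0.0542, 0.0548), NOP56 (0.0381, 0.0400), RRP9 (0.15, 0.15), WDR12 (-0.44, -0.44) and NPM1 (-0.23, -0.23), and at 500 nM NPM1 (-0.0624, -0.0619).

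Leaving out 1 library gave these ranges of members called: 15 to 30 for ABBV-075, 4 to 9 for ABBV-744 50 nM, 5 to 12 for ABBV-744 500 nM and 0 to 1 for IFNg, each against DMSO. Against IFNg they were 28 to 31 with ABBV-075, 27 to 31 with ABBV-744 50 nM and 25 to 29 with 500 nM. ABBV-075 against ABBV-744 gave 12 to 26, and 10 to 16 with IFNg; the ABBV-744 doses gave 0 to 1, and 0 with IFNg. The interactions gave 0 to 3 for ABBV-075, 23 to 28 for ABBV-744 50 nM and 17 to 22 for 500 nM. Depth limits RRP1, GAR1 and TCOF1 most.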
